A study of Mus musculus with 3 samples.

Results

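The cell division cycle is driven by cyclins and the cyclin-dependent kinases (CDKs) they activate. D-type cyclins with Cdk4 and Cdk6 act first, on the retinoblastoma family of pocket proteins, which hold the E2F transcription factors in check, and CDK inhibitors oppose them. E2F activity turns on the cyclins, the MCM helicase and the other genes of DNA replication, and a later wave brings the kinases, kinesins and centromere proteins that move chromosomes in mitosis. Renin-producing (juxtaglomerular) cells are mural cells of the afferent arteriole of the kidney and are regarded as largely quiescent in the adult. The signals of these genes are described here in samples sorted for such cells, which also carried markers of other cell types.

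Cell cycle and DNA replication genes were picked by symbol and not by any measured value. Cyclins A, B, D and E, numbered CDKs, CDK inhibitors, MCM, E2F, Aurora, polo-like, Bub, Kif1, Kif2 and Cenp genes were taken, with Mki67, Top2a, Birc5, Rrm1, Rrm2, Pcna, Cdc20, Cdc6, Cdc45 and Cdt1. This gave 147 probe sets of 133 genes, out of 19938 genes in all. A search by name also takes in genes with other work, such as the transport kinesins and the CDKs of transcription, and these are described apart. There is a single group of 3 samples (replicates 2, 4 and 5) from adult male Ren1c-YFP transgenic mice, strain unspecified, in which the Ren1c-YFP reporter marks renin-producing cells. All mice drank water with captopril, which blocks angiotensin-converting enzyme, at 0.5 mg/ml and ate low-salt chow for 2 weeks. YFP-positive cells were sorted from digested kidney cortex and their amplified RNA was hybridised to Affymetrix arrays, 1 sample to an array. With no untreated or YFP-negative group analysed here, the values are levels in these sorted samples and not effects of the treatment. The labels say that samples were not pooled and do not state that each was a separate animal, so p-values measure the spread between these samples, which may be technical.

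All values are log2 signals per probe set as deposited. As background served the 95th percentile of 1027 olfactory receptor (Olfr) genes on the same array, which stood at 6.20, 6.32 and 6.50 in replicates 2, 4 and 5. A gene was called when its signal exceeded that level by limma's one-sided test at an adjusted p under 0.05 over all genes. A signal depends on the probes as well as on the transcript, so levels of different genes are not ranked, and a gene under the level may still be expressed. The samples carried all 8 measured renin and mural cell markers, with Ren1 and Akr1b7 not used here, but also 8 of 8 proximal tubule, 4 of 4 thick ascending limb and 6 of 8 endothelial markers. Leukocyte markers passed in 1 of 8 cases, Tyrobp (6.73 ± 0.19, SD, n = 3). In such samples fewer cells of a type and less RNA per cell cannot be told apart, and which cells a transcript came from was not tested.

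Of the 133 cell cycle genes 41 were called above background (30.8%), against 37.3% of all 19938 genes. Another 17 had means above the level without passing, and 75 had means at or under it, of which 57 were under it on every array. The median over the 133 genes lay 0.09 log2 units under the level, and that over all genes 0.01 under it. Within this share the classes differed. All 3 D-type cyclins, both measured Cip/Kip inhibitors and all 7 CDKs of transcription and CDK activation passed, while none of the 6 measured cyclins A, B and E and none of the 3 proliferation markers Mki67, Top2a and Birc5 did. Taken by phase, 3 of 20 genes of the replication classes (15.0%) and 8 of 46 of the mitotic classes (17.4%) were called, against 21 of 46 (45.7%) in the classes with other roles. The replication classes are the E and A cyclins, activator E2Fs, MCM helicase, licensing factors, and reductase with clamp. The mitotic ones are the B cyclins, mitotic kinases, mitotic kinesins, centromere proteins and proliferation markers. The CDKs of transcription, the other CDKs and CDK-named partners, the transport kinesins, the other polo-like kinases and Cenpj and Cenpv make up the third group. D-type cyclins, Cdk1, Cdk2, Cdk4, Cdk6, the inhibitors, repressor E2Fs and Mcm8 and Mcm9 are in none of them. This grouping of classes was made after values had been seen, and no test was run between the groups.

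**Figure D1:**
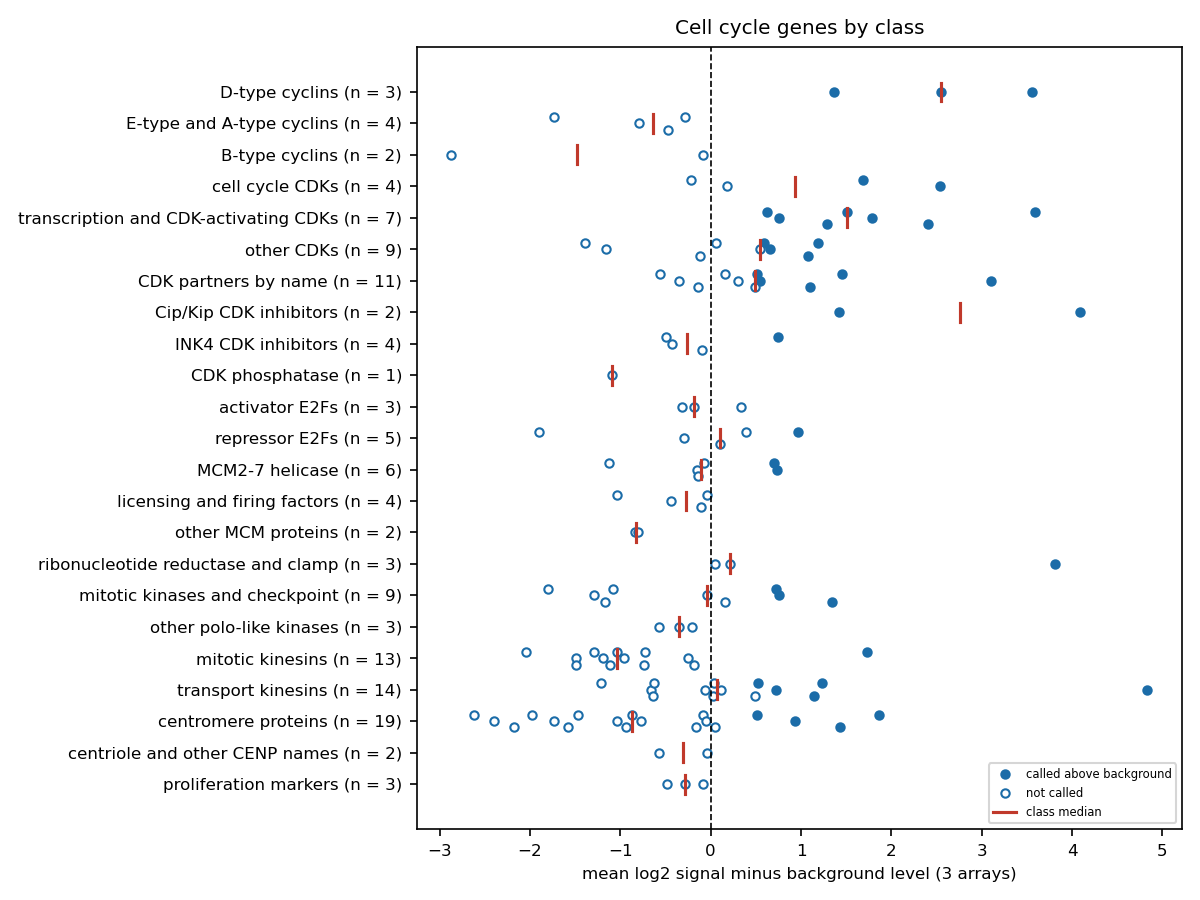
Mean log2 signal minus background level over 3 arrays (x axis) for each of the 133 cell cycle genes, by class (y axis). Filled points are genes called above background, open points are not called, points of a class are offset vertically for legibility, red bars are class medians and the dashed line is the level. The 3 D-type cyclins and both Cip/Kip inhibitors lie right of the line, and 12 of the 13 mitotic kinesins lie left of it.

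The level taken as background moved these counts, and the groups did not move alike. With the 99th percentile of Olfr genes 12 cell cycle genes were called (9.02%), against 16.6% of all genes. The replication, mitotic and other-role groups then had 1 of 20, 2 of 46 and 5 of 46. With vomeronasal receptor (Vmn) genes as the source of the level 89 were called (66.9%), against 65.9% of all genes. The groups had 15 of 20, 19 of 46 and 38 of 46 there, so the low share of the replication group did not hold at that level. At the 90th percentile the shares were 45.1% of cell cycle genes and 50.0% of all genes. The groups had 6 of 20, 11 of 46 and 32 of 46. With keratin-associated protein (Krtap) genes the shares were 2.26% and 3.56%, and the groups had 1 of 20, 0 of 46 and 1 of 46. The 12 that passed at the 99th percentile were Ccnd1, Ccnd2, Cdk4, Cdk8, Cdk11b, Cdk12, Cdk2ap1, Cdkn1b, Pcna, Kif1c, Kif2a and Cenpa. Only Cdkn1b, Pcna and Kif1c passed under all 12 alternatives run.

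**Figure D2:**
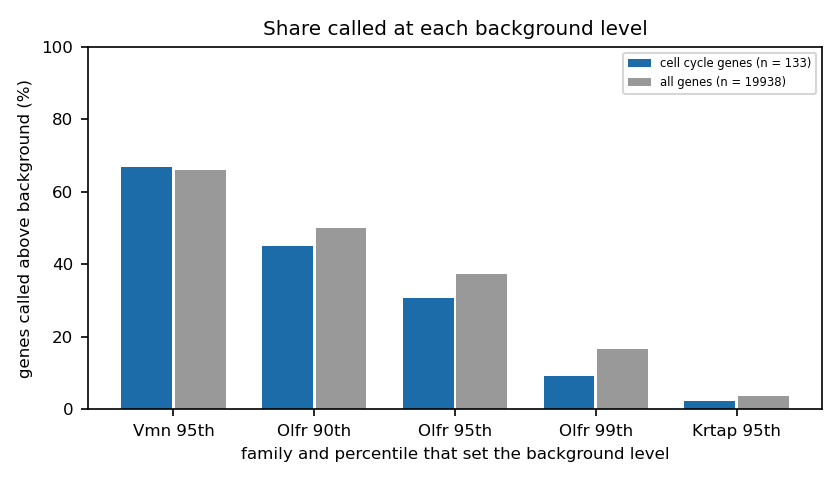
Share of genes called above background (y axis, percent) for the 133 cell cycle genes and all 19938 genes, with the level set by 5 choices of gene family and percentile (x axis). The share of cell cycle genes is below that of all genes at 4 of the 5 levels, and close to it with Vmn genes (66.9% and 65.9%).

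Sequence that the members share was read from promoters, since cell cycle genes are known to carry E2F sites and, for mitotic genes, the CHR element, through which the repressive DREAM complex silences them in resting cells. Promoter windows of 300 bases, 250 before the annotated start and 50 after it, came from RefSeq on build GRCm38.p6 and covered 115 of the 133 genes in 130 windows. E2F sites were searched as TTTCCCGC, TTTCGCGC, TTTGCCGC and TTTGGCGC, CHR elements as TTTGAA or TTTAAA, and CCAAT boxes as CCAAT, on both strands. These E2F letters can overlap each other on opposite strands. Windows with an E2F site made up 8 of 20 for the replication classes (40.0%), 6 of 49 for the mitotic classes (12.2%) and 0 of 42 for the classes with other roles, against 2.26% of all 32851 windows. A CHR element stood in 28 of 49 windows of the mitotic classes (57.1%), in 35.0% for the replication classes and in 8 of 42 for those with other roles, against 27.6% of all windows. CCAAT boxes were in 75.0%, 71.4% and 35.7% of these groups, against 37.4% of all. Median GC content, which also bears on such matches, was 57.5%, 58.3% and 66.5%, against 52.7%. Genes called above background had an E2F site in 2 of 40 windows (5.0%) and a CHR element in 9 (22.5%), and genes not called in 17 of 90 (18.9%) and 39 (43.3%). Of the 41 called genes 21 belong to the classes with other roles, so this split cannot be told apart from that by class. A match is a stretch of letters and not a site shown to be bound.

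**Figure D3:**
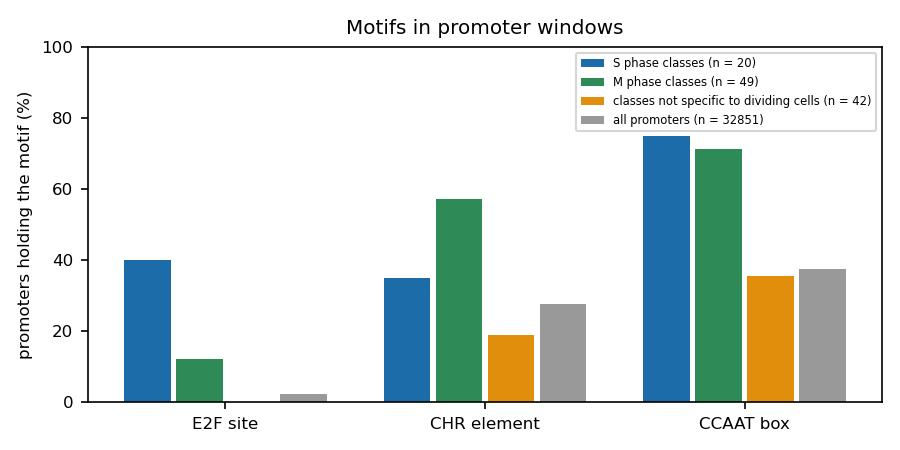
Share of promoter windows (y axis, percent) that hold an E2F site, a CHR element or a CCAAT box (x axis), for the replication (S phase) classes (20 windows), the mitotic (M phase) classes (49), the classes with other roles, marked as not specific to dividing cells (42), and all promoters (32851). E2F sites reach 40.0% in the replication classes and CHR elements 57.1% in the mitotic classes.

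The windows of 6 members show both kinds of element, with E2F and CHR letters in capitals, each written 5′ to 3′ along the gene. Mcm6, Mcm3 and Mcm7 encode helicase subunits with 3, 2 and 2 E2F matches, Mcm6 being called and Mcm3 and Mcm7 not. Mcm7 has a second window, at chr5:138171217-138171516, with a CCAAT box and no E2F or CHR match, which is not shown. In Mcm6, 2 of the matches overlap, at positions -110 and -106 from the start. The Cdk1 window holds 1 E2F and 2 CHR matches, Cdc20 has 1 CHR match and Mki67 has 2, and these 3 genes were not called. The windows lie at chr1:128359656-128359955 on the minus strand, chr1:20820263-20820562 on the minus strand and chr5:138171834-138172133 on the minus strand. Those of Cdk1, Cdc20 and Mki67 lie at chr10:69352863-69353162 on the minus strand, chr4:118437294-118437593 on the minus strand and chr7:135716330-135716629 on the minus strand.
Mcm6: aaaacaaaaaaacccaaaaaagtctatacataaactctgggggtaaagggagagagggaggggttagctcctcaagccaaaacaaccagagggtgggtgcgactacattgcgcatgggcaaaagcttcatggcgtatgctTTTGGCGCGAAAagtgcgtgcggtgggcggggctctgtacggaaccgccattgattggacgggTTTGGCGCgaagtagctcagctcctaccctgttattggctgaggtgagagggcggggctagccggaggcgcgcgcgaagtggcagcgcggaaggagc
Mcm3: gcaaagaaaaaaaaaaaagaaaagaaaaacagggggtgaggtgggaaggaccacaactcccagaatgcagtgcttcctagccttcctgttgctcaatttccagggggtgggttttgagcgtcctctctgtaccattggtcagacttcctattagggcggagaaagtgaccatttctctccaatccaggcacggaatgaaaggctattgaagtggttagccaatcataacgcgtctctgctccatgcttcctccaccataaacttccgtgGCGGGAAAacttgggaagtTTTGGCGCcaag
Mcm7: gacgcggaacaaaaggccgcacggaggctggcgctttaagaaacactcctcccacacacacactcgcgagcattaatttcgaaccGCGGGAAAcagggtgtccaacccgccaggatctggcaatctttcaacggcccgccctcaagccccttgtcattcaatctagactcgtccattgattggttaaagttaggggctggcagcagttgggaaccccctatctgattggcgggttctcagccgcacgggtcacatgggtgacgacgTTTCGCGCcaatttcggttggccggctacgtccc
Cdk1: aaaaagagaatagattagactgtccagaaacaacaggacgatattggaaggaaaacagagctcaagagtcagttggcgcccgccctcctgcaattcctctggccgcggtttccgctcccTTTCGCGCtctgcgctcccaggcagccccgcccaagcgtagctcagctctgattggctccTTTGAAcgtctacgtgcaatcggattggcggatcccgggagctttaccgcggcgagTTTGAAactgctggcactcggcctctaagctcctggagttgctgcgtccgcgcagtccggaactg
Cdc20: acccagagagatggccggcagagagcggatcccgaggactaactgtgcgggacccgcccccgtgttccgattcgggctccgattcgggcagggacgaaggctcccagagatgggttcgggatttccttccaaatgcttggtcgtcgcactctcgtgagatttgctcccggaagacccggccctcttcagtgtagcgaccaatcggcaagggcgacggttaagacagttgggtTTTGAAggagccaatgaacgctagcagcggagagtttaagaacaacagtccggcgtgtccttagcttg
Mki67: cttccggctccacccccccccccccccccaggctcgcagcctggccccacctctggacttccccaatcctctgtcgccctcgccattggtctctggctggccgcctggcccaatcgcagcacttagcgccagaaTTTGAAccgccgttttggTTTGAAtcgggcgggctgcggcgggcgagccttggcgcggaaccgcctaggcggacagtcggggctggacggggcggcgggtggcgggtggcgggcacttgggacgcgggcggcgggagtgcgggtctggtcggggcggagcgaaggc

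The D-type cyclins, which answer to growth signals and open the cycle, were above background in all samples. Ccnd2 had signals of 10.26, 9.87 and 9.57 in replicates 2, 4 and 5, a mean 3.56 above background (SE 0.27, limma adjusted p = 1.37e-05). Ccnd1 had 9.17, 9.03 and 8.48 and Ccnd3 had 7.36, 7.65 and 8.10. Replicate 5 was the lowest of the 3 for Ccnd1 and Ccnd2 and the highest for Ccnd3, and every value lay over its array's level. Their partners Cdk4 (8.78, 9.01 and 8.86) and Cdk6 (8.26, 8.52 and 7.30) passed too, with limma adjusted p-values of 3.88e-05 and 0.00143. The value of Cdk6 in replicate 5 was 1.22 log2 units under that in replicate 4.

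The kinases and cyclins of DNA replication and mitosis were at or near background. Cdk2, partner of cyclins E and A, had 7.31, 6.23 and 6.01, over the level in replicate 2 alone (limma adjusted p = 0.580). Cdk1, the mitotic kinase, had 6.49, 6.38 and 5.51, over the level in replicates 2 and 4 but with a mean 0.21 under it. Among the cyclins, Ccne1 (6.06 ± 0.28), Ccne2 (4.60 ± 0.34), Ccna1 (5.54 ± 0.19) and Ccna2 (5.86 ± 0.46) were under the level on every array (SD, n = 3). Ccnb2 stood at 6.25, 6.49 and 6.04, with 2 of 3 values over the level, and Ccnb3 at 3.43, 3.40 and 3.59, far under it. Cyclin B1 is not analysed here.

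CDK inhibitors of the Cip/Kip family, which hold CDKs inactive in resting and differentiated cells, were above background. Cdkn1b, which encodes p27, had 10.50, 10.29 and 10.51, a mean 4.09 above background (SE 0.23, limma adjusted p = 2.38e-06). Its second probe set had a mean of 7.71 and was called as well. Cdkn1c, which encodes p57 and marks podocytes in the kidney glomerulus, had 8.25, 7.60 and 7.44. It passed with a limma adjusted p of 0.00140, in samples where Plce1 was the 1 of 5 podocyte markers called and Nphs1 had 6.41, 6.44 and 5.96; whether Cdkn1c signal came from podocytes was not tested. The third family member, Cdkn1a, shares its probe set with another gene name and is not analysed here. Of the INK4 inhibitors of Cdk4 and Cdk6, Cdkn2d passed with 7.44, 6.93 and 6.91, a call that ended when replicate 2 was left out (limma adjusted p = 0.0757). Cdkn2c, at 6.90, 6.07 and 5.77, was over the level in replicate 2 alone. Cdkn2a (5.84 ± 0.11) and Cdkn2b (5.92 ± 0.28), which rise in senescent cells, were under it on all arrays (SD, n = 3). Cdkn3, a phosphatase that acts on Cdk2, was under it as well (5.25 ± 0.08).

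**Figure D4:**
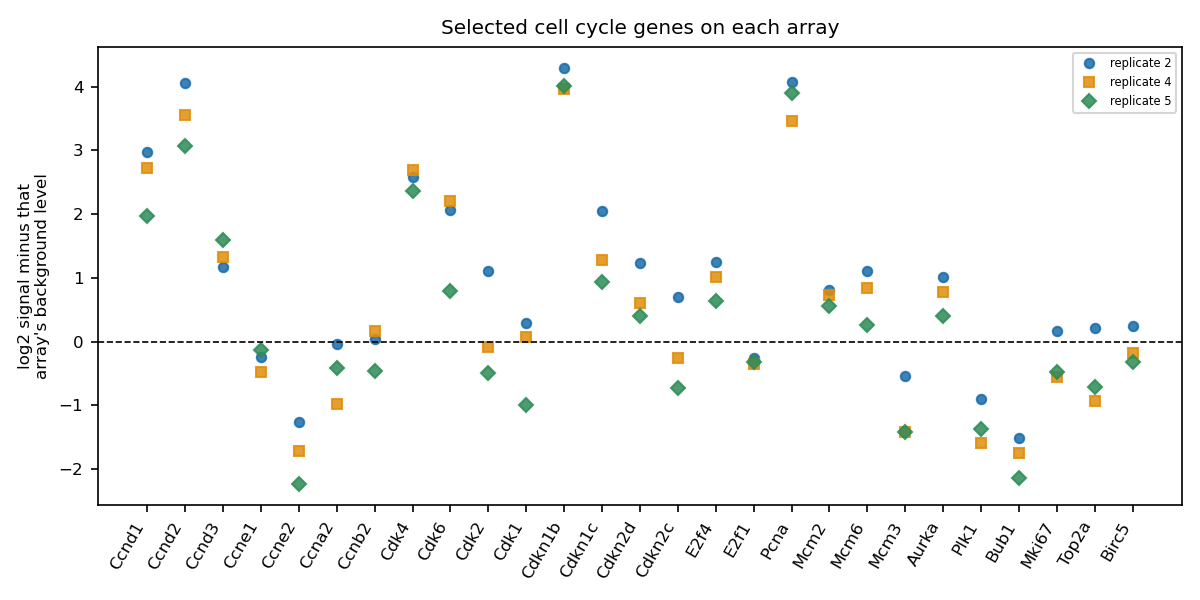
Log2 signal minus the array's own background level (y axis) for 27 cell cycle genes (x axis), with 1 point per replicate and the level as a dashed line. D-type cyclins, Cdk4, Cdkn1b and Pcna lie above the line on all 3 arrays, and Ccne1, Ccne2, Ccna2, E2f1, Mcm3, Plk1 and Bub1 lie below it on all 3.

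The pocket proteins that these kinases act on were measured along with the E2Fs. Of 10 genes of the pocket protein and DREAM list 7 passed (70%), beside 37.3% of all genes. Among them were Tfdp1 (7.94 ± 0.15), the dimer partner of E2Fs, Rbl2 (7.89 ± 0.51), a pocket protein of the DREAM complex, and Rbbp4 (7.80 ± 0.16). Rb1, the retinoblastoma gene, had 7.49, 7.90 and 7.96. Lin54 (6.22 ± 0.21), the pocket protein gene Rbl1 (5.87 ± 0.24) and Lin9 (4.25 ± 0.06) did not pass. Among the E2Fs only E2f4, a repressor that works with the pocket proteins, was called, with 7.44, 7.33 and 7.14 (limma adjusted p = 0.00281). The activators E2f1 (6.03 ± 0.13) and E2f2 (6.16 ± 0.22) were under the level on all arrays. E2f3, the third activator, had 6.96, 6.36 and 6.71, just over it on each (limma adjusted p = 0.130), and passed without replicate 5 (limma adjusted p = 0.00773). E2f6 (6.73 ± 0.39) and E2f5 (6.44 ± 0.43) had means over it and did not pass, although E2f6 did without replicate 5 and with dim genes filtered out (limma adjusted p = 0.011 and 0.0459). E2f7 (6.04 ± 0.12) and E2f8 (4.44 ± 0.14), which repress in cycling cells, were under it (SD, n = 3 throughout).

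Among replication genes the sliding clamp and 2 of the 6 helicase subunits (33.3%, beside 37.3% of all genes) were called. Pcna, the clamp that holds DNA polymerase and also serves DNA repair, had 10.28, 9.78 and 10.40, a mean 3.81 above background (SE 0.25, limma adjusted p = 5.31e-06). Its 2 probe sets had means of 10.15 and 10.13 and the same value in replicate 4, so they are not independent readings. Of the 6 subunits of the MCM helicase, which unwinds DNA at the origin, Mcm2 (7.02, 7.05 and 7.06) and Mcm6 (7.31, 7.15 and 6.77) were called. Leaving out replicate 2 ended the call of Mcm6 (limma adjusted p = 0.0822). The subunits form 1 complex, yet Mcm5 (6.27 ± 0.15), Mcm4 (6.21 ± 0.26) and Mcm7 (6.19 ± 0.38) had means within 0.3 of the level and Mcm3 (5.66, 4.90 and 5.09) was under it on every array. The loaders and firing factors Cdt1 (6.30 ± 0.16), Cdc45 (6.23 ± 0.14), Mcm10 (5.91 ± 0.16) and Cdc6 (5.31 ± 0.19) did not pass. Mcm8 and Mcm9, helicases of recombination, were under the level on all arrays (5.50 ± 0.36 and 5.53 ± 0.11). Rrm1 (6.39 ± 0.31) and Rrm2 (6.56 ± 0.20), the subunits of ribonucleotide reductase, had means slightly over it and did not pass (limma adjusted p = 0.828 and 0.265; SD, n = 3).

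Genes of replication outside the name rule gave 7 of 36 calls for the origin and fork (19.4%) and 5 of 5 for nucleotide supply, against 37.3% of all genes. Called fork genes included Orc3 (8.60 ± 0.24) and Gins4 (8.51 ± 0.52), an origin recognition and a helicase subunit, and Rpa3 (7.82 ± 0.35), a subunit of the single-strand binding protein, while Orc1 (4.81 ± 0.11) did not pass. Nor did Gins1, Gins2, Gins3, Rpa1 and Rpa2. Of the other Orc genes Orc4 was called, and Orc2, Orc5 and Orc6 were not. In nucleotide supply, Rrm2b, the reductase subunit used outside replication, had 8.61, 8.71 and 8.04. Tk1, thymidine kinase, had 7.79, 7.15 and 7.89, and Tyms, thymidylate synthase, had 7.40, 7.03 and 7.86. Tk1 and Rpa3 have 2 probe sets each, of which only the brighter is given. Dut, which removes dUTP, had 6.70, 6.87 and 7.53. All of these values lay over the level of their arrays, for Tk1 and Tyms with the lowest in replicate 4 (SD, n = 3 where given).

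Mitotic kinases and checkpoint genes were called in 3 of 9 cases (33.3%), close to the 37.3% of all genes. Aurka, the Aurora kinase of spindle poles, had 7.21, 7.09 and 6.91, and its call ended when replicate 2 was left out (limma adjusted p = 0.0571). Bub3, a checkpoint protein, had 7.15, 6.96 and 7.17 (limma adjusted p = 0.00511). The third, Aurkc, a kinase best known from meiosis, has 4 probe sets with means of 7.69, 6.59, 6.14 and 5.80, and only the first was called. Averaging all 4 ended the call (limma adjusted p = 0.181). Cdc20, the activator of the anaphase-promoting complex, had 6.54, 6.53 and 6.43 and Aurkb 6.12, 6.21 and 6.58, both close to the level. The kinases Plk1 (5.05 ± 0.29), Plk4 (5.26 ± 0.37), Bub1 (4.54 ± 0.16) and Bub1b (5.17 ± 0.41) were under it on all arrays. So were the other polo-like kinases Plk2 (5.99 ± 0.22), Plk3 (5.77 ± 0.31) and Plk5 (6.14 ± 0.18), of which Plk2 and Plk3 respond to stress (SD, n = 3). In these samples 6 of 11 dissociation response genes passed (54.5%, beside 37.3% of all genes). They were Hspa1a, Dusp1, Jun, Btg2, Ier3 and Egr1, while Fos, Fosb, Junb, Atf3 and Ier2 did not pass.

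The 3 proliferation markers were near or under the level. Mki67, the Ki-67 antigen gene, had 6.37, 5.77 and 6.02, a mean 0.29 under background with a 95% interval that reached 0.09 above it. Top2a, topoisomerase of dividing cells, had 6.41, 5.38 and 5.79, and its dimmer probe set a mean of 3.42. Birc5, survivin, had 6.44, 6.14 and 6.18, with an upper bound of the interval at 0.26 above background. In each of the 3 genes replicate 2 was the highest and the sole array over its level. Higher means than those of Mki67, Top2a and Birc5 were found in 7.79%, 11.9% and 4.87% of the Olfr genes.

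Of 13 mitotic kinesins, motors of the spindle and of cytokinesis, Kif2a alone was called (7.69% of the class, against 37.3% of all genes). It had 8.44, 7.69 and 8.09 (limma adjusted p = 0.000409). Kif2a depolymerises microtubules and also works in cells that do not divide. The other 12 had means under the level, and 11 of the 13 were under it on every array. Among the 12 were Kif18a (4.30 ± 0.34), Kif11 (5.23 ± 0.24), the motor that separates the poles, and Kif23 (6.16 ± 0.14), which acts in cytokinesis. Kif23 was just over the level in replicate 4 and under it on the other arrays. Kif20b had 6.13, 5.07 and 4.94, higher by over 1 log2 unit in replicate 2 than in either other sample but still under its level (SD, n = 3).

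Centromere protein genes passed in 4 of 19 cases (21.1%), against 37.3% of all genes. Cenpa, the histone H3 variant that marks centromeres, had 8.95, 7.43 and 8.23, over the level on all arrays but 1.52 log2 units apart (limma adjusted p = 0.00107). Cenpb, which binds a centromeric repeat, had 7.65, 7.90 and 7.77 (limma adjusted p = 0.000415). Cenpx, which also belongs to a DNA repair complex, had 7.01, 7.13 and 7.69. Cenpt (6.85 ± 0.26) passed, but leaving out replicate 2 or 4 ended its call (limma adjusted p = 0.0777 and 0.0705). Of the other 15 genes 11 were under the level on every array, among them the mitotic Cenpe (5.30 ± 0.47), Cenpf (5.40 ± 0.50) and Cenpu (3.72 ± 0.14). Cenpk was deposited with 1 and the same value, 5.57, in all 3 samples, as were 5 of the 35557 probe sets, so its spread carries no information. Cenpj, a centriole gene, and Cenpv did not pass (5.77 ± 0.27 and 6.30 ± 0.21; SD, n = 3).

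Other genes of mitosis were called in 4 of 38 cases (10.5%) and those of the anaphase-promoting complex in 10 of 13 (76.9%), beside 37.3% of all genes. Pttg1, securin, had 11.09, 11.26 and 10.71 and passed together with the condensin gene Smc4 (7.84 ± 0.40) and the kinase genes Pkmyt1 (7.12 ± 0.26) and Wee1 (6.87 ± 0.14), whose products restrain Cdk1. Kif4, a chromosome motor, was at 3.97 ± 0.24. In the anaphase-promoting complex, a ubiquitin ligase that also acts in resting cells, Anapc13 (12.67 ± 0.15), Anapc5 (9.18 ± 0.29) and Anapc1 (8.48 ± 0.24) were called and Anapc10 (6.51 ± 0.41) was not. Cyclins outside the rule passed in 8 of 12 cases, with Ccng1, a target of p53, at 10.64 ± 0.09 and Ccni at 10.43 ± 0.72, with Ccnl2 (8.37 ± 0.14), and Ccnf (5.61 ± 0.31), a cyclin of cycling cells, under the level. Of p53 response and antiproliferative genes 7 of 11 passed, among them Btg2 (8.23 ± 0.32), Gadd45a (8.13 ± 0.26) and Btg1 (7.84 ± 0.55), but not Gadd45g (5.67 ± 0.05). Btg2 is also counted among the dissociation response genes. Over the 7 lists together 48 of 125 genes were called (38.4%), close to the 37.3% of all genes (SD, n = 3 throughout).

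CDKs that work on transcription were called in 7 of 7 cases, beside 37.3% of all genes. Cdk8, the kinase of the Mediator complex, had 9.48, 10.70 and 9.62, and Cdk19, its paralog, 8.63, 6.83 and 7.44. The high samples differed, replicate 4 for Cdk8 and replicate 2 for Cdk19, and both genes were over the level throughout. Cdk11b (8.74 ± 0.32), Cdk12 (8.12 ± 0.50), Cdk13 (7.85 ± 0.51), Cdk7 (7.10 ± 0.10) and Cdk9 (6.97 ± 0.39) made up the class (SD, n = 3). Cdk7, the CDK-activating kinase, lost its call when its 2 probe sets were averaged (limma adjusted p = 0.342). Cdk9, of the elongation factor P-TEFb, lost it when replicate 2 or 4 was left out (limma adjusted p = 0.202 and 0.061).

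Of 9 further CDKs 4 passed (44.4%), beside 37.3% of all genes. They were Cdk16 (7.53 ± 0.18), Cdk17 (7.41 ± 0.16), Cdk18 (7.08, 6.98 and 6.93) and Cdk5 (6.94 ± 0.43), the kinase best known from neurons. Leaving out replicate 2 ended the calls of Cdk18 and Cdk5 (limma adjusted p = 0.0631 and 0.233), and so did leaving out replicate 4 (0.0503 and 0.135). Cdk15 (4.95 ± 0.20) was under the level, and Cdk10 had 6.79, 7.49 and 6.40, over it in 2 of 3 samples (limma adjusted p = 0.0700, against 0.00628 without replicate 5 and 0.0228 with dim genes filtered out). CDK-named partners passed in 5 of 11 cases (45.5%). These were Cdk2ap1 (9.24, 9.74 and 9.36), a binding partner of Cdk2, with Cdk5rap3 (7.79 ± 0.20), Cdk2ap2 (7.44 ± 0.18), Cdk5r2 (6.89 ± 0.15) and Cdkn2aipnl (6.85 ± 0.19). The call of Cdk5r2 ended when replicate 2 or 4 was left out (limma adjusted p = 0.0651 and 0.0775), as was that of Cdkn2aipnl (0.193 and 0.0858). Ccnb1ip1 (5.78 ± 0.08) was under the level (SD, n = 3).

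The kinesins outside the mitotic class, grouped here as transport kinesins, were called in 5 of 14 cases (35.7%), close to the 37.3% of all genes. Kif1c, a motor that carries vesicles and integrins, had 11.51, 10.88 and 11.13, a mean 4.83 above background (SE 0.24, limma adjusted p = 1.15e-06), and its second probe set, at a mean of 8.87, was called as well. The others were Kif1b (7.57 ± 0.33), Kif21a (7.48, 8.15 and 6.81), Kif13b (7.07 ± 0.17) and Kif12 (6.87 ± 0.05), a kinesin of kidney and liver epithelia. The call of Kif13b ended when replicate 2 was left out (limma adjusted p = 0.0608), and that of Kif12 when replicate 2 or 4 was (limma adjusted p = 0.0899 and 0.117). Kif16b (6.83 ± 0.45) did not pass, but did without replicate 5 and with dim genes filtered out (limma adjusted p = 0.00504 and 0.0274), and Kif27 (5.13 ± 0.07) was under the level on all arrays (SD, n = 3).

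Probe sets were also fitted each on its own, and 45 of the 147 (30.6%) were called, against 37.7% of all 21789 probe sets with 1 symbol. All of the 41 genes kept at least 1 called probe set. Of the 12 genes with more than 1 probe set, Cdk12, Cdk7 and Aurkc had probe sets on both sides of the call.

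The samples differed little for most members, and more often with replicate 2 on top. The median SD was 0.30 for the 41 called members and 0.27 for all 7437 called genes, and the range between samples exceeded 1 log2 unit in 10 of the 133 genes. The widest ranges were those of Cdk19 (1.80), Cenpa (1.52), Kif21a (1.34), Cdk2 (1.30) and Cdk6 (1.22). In the mitotic classes replicate 2 was the highest sample for 22 of 46 genes (47.8%), against 30.5% of all genes and 22.6% of all genes not called. This was not particular to them, with 45.1% of all 133 members, 45% of the replication classes and 39.1% of the classes with other roles. The mean of these 46 genes lay 0.39, 0.76 and 0.81 under background in replicates 2, 4 and 5. For the 38 other genes of mitosis it lay 0.12, 0.59 and 0.60 under it, with 20 highest in replicate 2. Replication classes stood at 0.16, -0.12 and -0.19, and all genes at 0.32, 0.19 and -0.01. The 8 endothelial markers had the same order by this measure, with means of 2.27, 0.99 and 0.72 above background in the 3 samples and 7 of 8 highest in replicate 2. Each array's level is taken off in these means, and it rose from 6.20 in replicate 2 to 6.50 in replicate 5. In deposited signals the median mitotic gene differed from the mean of the other samples by 0.09, -0.20 and -0.01, lowest in replicate 4. Means above the level were also highest in replicate 2 and lowest in replicate 5 for the podocyte markers (0.76, 0.42 and 0.09) and the dissociation response (1.33, 0.89 and 0.68). The same held for the renin and mural markers (5.11, 4.72 and 4.56) and the proximal tubule markers (5.21, 5.20 and 4.38). The rise of the level enters this order, whereas the counts of the highest sample use deposited signals. The leukocyte markers stood at -0.65, -0.76 and -0.74, and those of the thick ascending limb at 4.61, 5.02 and 3.81. The part of any of these in the mitotic values was not tested. After quantile normalization 27 of the 46 mitotic genes (58.7%) were highest in replicate 2, against 51.1% of all 133 members and 35.8% of all genes.

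**Figure D5:**
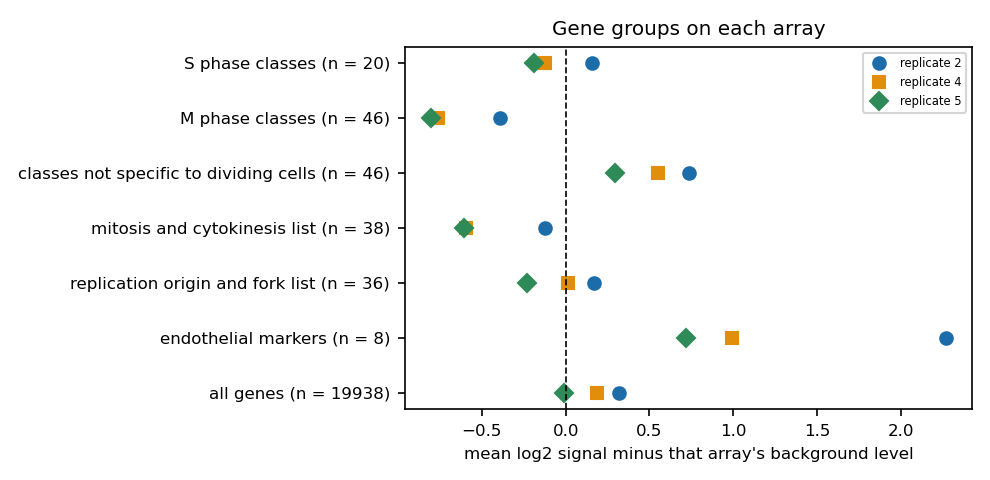
Mean log2 signal minus background level (x axis) on each of the 3 arrays for gene groups (y axis), with 1 point per replicate and the level as a dashed line. The mitotic (M phase) classes and the mitosis list lie left of the line on every array and closest to it in replicate 2, where the endothelial markers are highest (2.27).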

How the data were processed

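Per the labels, a NuGEN kit gave 1 round of RNA amplification before biotin labelling. The deposited file holds 1 log2 signal per probe set and array for 35557 probe sets, made by the authors with Affymetrix Expression Console per the submitters' processing notes; its version, background correction, summary and normalization were not given in the sources used here. No source states the log base, and log2 was inferred from the range of the values. Symbols came from the platform's annotation: 21789 probe sets had 1 gene, 1621 several (left out, 4 of them with a cell cycle name) and 12147 were not listed. Entrez identifiers of all 133 genes matched RefSeq on GRCm38.p6. The brightest probe set was taken per gene. Log2 signal minus background went into limma 3.58.1, run under R 4.3.3, with an intercept and eBayes with trend (one-sided, Benjamini-Hochberg over 19938 genes) and tested on simulated data; at an unadjusted p under 0.05, 45 cell cycle genes and 8086 genes passed. The 3 arrays limit the precision.

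The members and the 14 lists around them were chosen with earlier results of these data known. Genes were named by a rule: all called members, every member of the cyclin, cell cycle CDK, inhibitor, E2F, MCM, licensing, reductase, mitotic kinase and marker classes, the lowest of each class, the 5 widest ranges, and up to 3 called genes with the lowest per list (marker lists are given mainly by their counts). Some genes outside it, such as Kif11, Kif23, Cenpe, Cenpf, Rb1, Tk1 and Wee1, were added after their values were seen. Promoter windows were searched in Python 3.11.15.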

Additional observations from a re-analysis of the deposited data

How the results depend on the processing

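The counts rested on the background level. At the 99th percentile of Olfr genes 12 cell cycle genes, 15 of their probe sets, 17 genes of the other cell cycle lists and 3303 genes in all were called. With Vmn genes the counts were 89, 100, 92 and 13140, and with Krtap genes 3, 4, 4 and 709; these families have 167 and 44 genes here. At the 90th percentile, with the mean of probe sets, each probe set on its own, quantile normalization, eBayes without trend, dim genes filtered out or 1 replicate left out, these counts stayed within 1.5 times those reported, where that alternative was run. Leaving out 1 replicate gave 30 to 46 cell cycle genes, 39 to 54 genes of the other lists and 6069 to 7807 genes. Without replicate 2 the 30 called were all among the 41. Of the 92 cell cycle genes not called, 44 passed under none of the 11 alternatives that tested them, the filter on dim genes having left them out. With the part of the promoter window upstream of the start alone, E2F windows of the replication classes fell to 5 of 20 (25.0%), against 8 in the whole window, while counts of E2F, CHR and CCAAT genes over all cell cycle genes moved by less than 1.5 times. Cell cycle genes with a range over 1 numbered 13 after quantile normalization.

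Called genes whose mean fell under the level, by log2 units above it, were at the 99th percentile Cdk7 (-0.10), Cdk9 (-0.24), Cdk18 (-0.21), Cdk5 (-0.27), Cdk5r2 (-0.32), Cdkn2aipnl (-0.35), Cdkn2d (-0.11), Mcm6 (-0.13), Mcm2 (-0.16), Bub3 (-0.11), Aurka (-0.13), Kif13b (-0.13), Kif12 (-0.34) and Cenpt (-0.35). With Krtap genes they were Ccnd3 (-0.96), Cdk6 (-0.64), Cdk12 (-0.54), Cdk13 (-0.82), Cdk19 (-1.04), Cdk7 (-1.56), Cdk9 (-1.70), Cdk16 (-1.14), Cdk17 (-1.25), Cdk18 (-1.67), Cdk5 (-1.73), Cdk5rap3 (-0.87), Cdk2ap2 (-1.23), Cdk5r2 (-1.78), Cdkn2aipnl (-1.82), Cdkn1c (-0.90), Cdkn2d (-1.58), E2f4 (-1.36), Mcm6 (-1.59), Mcm2 (-1.62), Aurkc (-0.98), Bub3 (-1.57), Aurka (-1.60), Kif2a (-0.60), Kif1b (-1.10), Kif21a (-1.19), Kif13b (-1.60), Kif12 (-1.80), Cenpa (-0.47), Cenpb (-0.90), Cenpx (-1.39) and Cenpt (-1.81). The higher levels account for these by construction. Cdk5 also missed the threshold by eBayes without trend (limma adjusted p = 0.0637). No paired analysis was possible because the series holds 1 group.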
